A study of Homo sapiens with 54 samples.

Results

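DDC, OPRK1 and BCHE were followed across 54 xenograft tumours, each raised from LNCaP, a line of androgen-responsive human prostate cancer cells, in the flank of a NOD-SCID mouse, an animal without functional B and T cells. DDC and OPRK1 were selected on their strong and lasting rise after castration, and BCHE was added as a further neural-type gene of the same direction, which gives 3 genes of the 60642 symbols in the deposited table. Their levels against the tumours of intact mice therefore chose them and are given as a description with no test. The differences among the groups of castrated mice were tested, although a lasting rise was part of the choice, so the levels in these groups were known when the genes were chosen.

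There was 1 tumour for each mouse, and all 5 groups carried the same clone of LNCaP, FGC, so they describe a single cell line. The hosts were male and a few weeks old when they were obtained. PRE-CX tumours (n = 9) came from mock-operated mice with intact testes and were taken at 1000 mm3. All other mice were castrated when the tumour reached about 200 mm3. POST-CX tumours (n = 8) were taken 1 week later at the lowest serum prostate-specific antigen, and CRPC tumours (n = 10) once the antigen or the tumour had grown back without androgens. Mice of the last 2 groups received the antiandrogen enzalutamide by mouth at 10 mg/kg on 5 days per week from the rise of the antigen after castration. ENZS tumours (n = 12) were taken at the second low point of the antigen on the drug, and ENZR tumours (n = 15) after relapse on it.

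DDC encodes aromatic L-amino acid decarboxylase, the vitamin B6-dependent enzyme that turns L-DOPA into dopamine and 5-hydroxytryptophan into serotonin. OPRK1 encodes the kappa opioid receptor, which is coupled to inhibitory G proteins and is activated by dynorphin peptides. BCHE encodes butyrylcholinesterase, a secreted enzyme that splits choline esters, including acetylcholine. In luminal prostate cells androgens can hold genes down as well as raise them, and genes of the first kind go up when androgens are removed.

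The unit throughout is TPM (transcripts per 1000000), a relative level per gene that corrects for transcript length. The human symbols summed to between 12.1% and 97.5% of 1000000 TPM per tumour, and 2 tumours fell below 50%, POST-CX mouse 91 at 27.9% and ENZR mouse 87 at 12.1%. A low total scales down all genes of a tumour alike, so the members are also given after rescaling each tumour to 1000000. All 10 LNCaP and prostate luminal markers, among them KLK3, FOLH1 and HOXB13, passed the expression filter of 1 TPM or more in at least 8 tumours. In bulk tumours, fewer cells of a type and less RNA per cell cannot be told apart.

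RefSeq places DDC on chromosome 7 from 50458442 to 50565405 and BCHE on chromosome 3 from 165772904 to 165837423, both on the minus strand of GRCh38.p14. The regions around the annotated starts are shown because the results below set each gene against its neighbours on the chromosome, and because DDC has 2 annotated starts that a value per gene cannot tell apart. RefSeq windows of 250 bases before and 50 after a start were found for 2 of the 3 genes. They are printed from 5′ to 3′ on the minus strand, with the letters of a searched motif in capitals.
DDC, chr7:50565356-50565655: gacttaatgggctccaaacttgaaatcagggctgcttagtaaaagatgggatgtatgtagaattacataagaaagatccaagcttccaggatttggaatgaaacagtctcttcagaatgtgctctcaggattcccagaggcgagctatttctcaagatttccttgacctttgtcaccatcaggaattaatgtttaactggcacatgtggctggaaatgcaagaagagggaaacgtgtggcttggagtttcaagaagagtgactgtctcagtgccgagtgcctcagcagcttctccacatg
DDC, chr7:50561022-50561321: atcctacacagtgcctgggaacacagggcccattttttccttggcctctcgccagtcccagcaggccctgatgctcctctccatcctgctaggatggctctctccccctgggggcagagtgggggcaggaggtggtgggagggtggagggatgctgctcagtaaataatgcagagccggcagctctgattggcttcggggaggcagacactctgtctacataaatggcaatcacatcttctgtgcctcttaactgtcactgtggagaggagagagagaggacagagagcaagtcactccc
BCHE, chr3:165837374-165837673: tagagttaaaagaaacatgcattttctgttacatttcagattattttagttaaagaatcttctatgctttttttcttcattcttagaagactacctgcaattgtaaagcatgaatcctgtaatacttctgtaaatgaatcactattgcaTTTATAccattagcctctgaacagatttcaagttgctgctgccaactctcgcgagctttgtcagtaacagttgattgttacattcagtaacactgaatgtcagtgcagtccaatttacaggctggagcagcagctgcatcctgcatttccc
On both strands the steroid receptor half-site AGAACA, the forkhead motif TGTTTAC and the TATA box TATAAA were searched, and they occur in 14.8%, 3.42% and 11.5% of the 35116 windows of this length. Neither DDC window held any of these letters. The BCHE window held 1 match, a TATA box read on the opposite strand (TTTATA), 101 bases before the start. The share of G and C was 44.3% and 57.3% in the DDC windows and 36.7% in that of BCHE, against a median of 58.7% over all windows.

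DDC was a low and uneven transcript in intact mice and one of the more abundant transcripts after castration. Its TPM in PRE-CX ranged from 1.39 over a median of 3.24 to 56.65, with a mean of 12.0 ± 18.4 (SD, n = 9). In POST-CX it ranged from 134 over 272 to 441, with a mean of 267 ± 97.9 (n = 8). Already 1 week after castration the lowest tumour therefore lay above the highest tumour of an intact mouse. In CRPC it ranged from 31.4 over 193 to 356 (181 ± 107, n = 10). In ENZS it ranged from 191 over 389 to 1164 (587 ± 393, n = 12). In ENZR it ranged from 20.3 over 401 to 1077 (448 ± 331, n = 15). The 12 ENZS tumours fell into 4 between 1012 and 1164 TPM and 8 between 191 and 468 TPM. DDC lay above every PRE-CX tumour in 8 of 8 POST-CX, 9 of 10 CRPC, 12 of 12 ENZS and 14 of 15 ENZR tumours, the exceptions being CRPC mouse 81 at 31.4 and ENZR mouse 104 at 20.3 TPM. Ordered by level within a tumour, DDC moved from a median rank of 11764 in PRE-CX to 359.5 in POST-CX, 569.5 in CRPC, 239 in ENZS and 238 in ENZR, and at its best to rank 41 in ENZS mouse 49.

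OPRK1, the receptor gene, lies at 53225724 to 53251637 on chromosome 8 (GRCh38.p14) and started near the floor. In PRE-CX it ranged from 0.48 over a median of 0.89 to 4.76 TPM (1.57 ± 1.47, SD, n = 9). In POST-CX the range was 13.1 over 27.3 to 35.4 (25.2 ± 8.03, n = 8), the narrowest of the castrated groups. In CRPC it was 11.2 over 57.6 to 121 (62.6 ± 35.4, n = 10). In ENZS it was 11.5 over 148 to 207 (129 ± 59.0, n = 12), where 1 tumour, ENZS mouse 17, lay far below the next lowest at 58.8. In ENZR it was 4.14 over 84.1 to 234 (91.7 ± 67.6, n = 15). All POST-CX, CRPC and ENZS tumours were above all PRE-CX tumours, and so were 13 of 15 ENZR tumours. The other two were ENZR mouse 75 at 4.76 TPM and ENZR mouse 87 at 4.14 TPM, the latter being the tumour with the lowest human total, and after rescaling all 15 were above PRE-CX. Median ranks were 14902 in PRE-CX, 4608.5 in POST-CX, 2364 in CRPC, 825 in ENZS and 1728 in ENZR.

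BCHE rose less and overlapped more. It ranged in PRE-CX from 0.02 over 0.72 to 4.15 TPM (1.29 ± 1.42, SD, n = 9) and in POST-CX from 2.39 over 14.2 to 25.1 (13.6 ± 8.80, n = 8). In CRPC the range was 1.21 over 17.9 to 55.0 (22.2 ± 19.1, n = 10), and in ENZS it was 3.4 over 18.7 to 110.4 (31.1 ± 32.6, n = 12). In ENZR it was 0.36 over 5.84 to 61.2 (12.53 ± 16.7, n = 15). The SD exceeded the mean in PRE-CX, ENZS and ENZR. Only 6 of 8 POST-CX, 8 of 10 CRPC, 11 of 12 ENZS and 10 of 15 ENZR tumours lay above all PRE-CX tumours. The median rank of BCHE passed from 16196 in PRE-CX to 7301 in POST-CX and 6373 in CRPC and was 11012 in ENZR.

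On the log2(TPM + 1) scale, which understates changes from levels below 1 TPM, DDC exceeded PRE-CX by 5.25 in POST-CX, 4.48 in CRPC, 6.17 in ENZS and 5.54 in ENZR. The same differences were 3.44, 4.53, 5.55 and 4.77 for OPRK1 and 2.58, 2.97, 3.4 and 1.90 for BCHE. These values chose the genes, and nothing is read from them. For reference, 2.62% of the 17131 genes tested were called in POST-CX minus PRE-CX, 3.17% in CRPC minus PRE-CX, 12.7% in ENZS minus PRE-CX and 8.55% in ENZR minus PRE-CX, at an adjusted p under 0.05 and a log2 difference of at least 1 in either direction. The PRE-CX mean of DDC rests partly on PRE-CX mouse 53, without which it is 6.47 ± 8.14 TPM (n = 8), and the 4 differences from PRE-CX then become 5.64, 4.87, 6.56 and 5.93. After rescaling, mean DDC was 12.9 TPM in PRE-CX, 385 in POST-CX, 198 in CRPC, 670 in ENZS and 560 in ENZR. Rescaled OPRK1 means were 1.71, 36.9, 67.7, 146 and 109 TPM in the same order, and those of BCHE 1.51, 16.5, 25.1, 35.4 and 22.9 TPM.

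**Figure D1:**
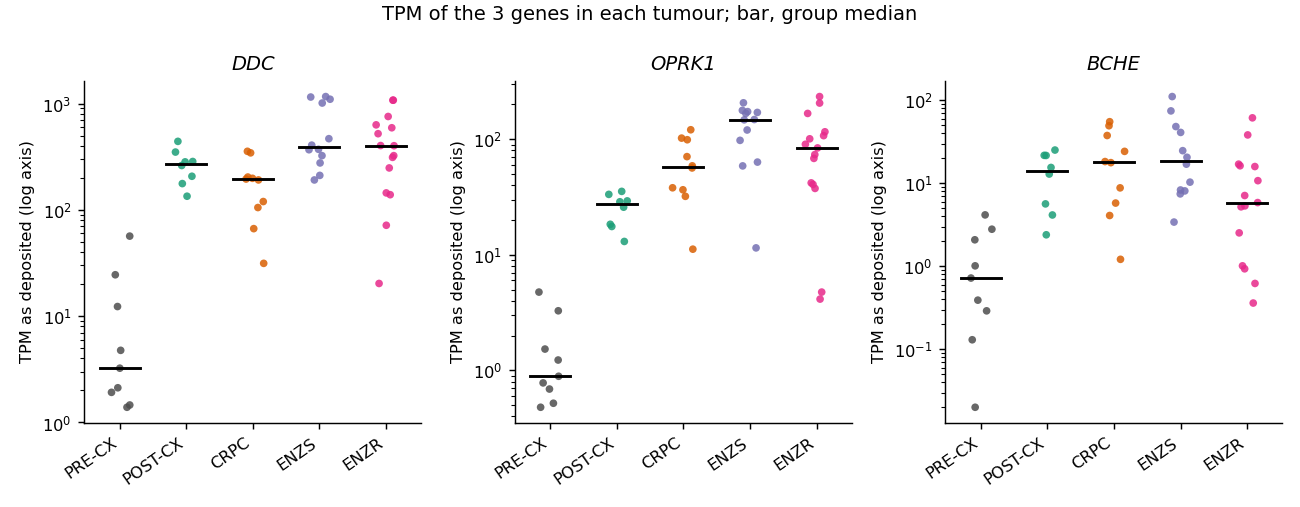
TPM of DDC, OPRK1 and BCHE as deposited (vertical log axis) in each of the 54 tumours, by group on the horizontal axis, with points for tumours and a black bar for the group median. The 8 POST-CX tumours lie between 134 and 441 TPM of DDC, above all PRE-CX tumours, and BCHE shows the widest overlap with PRE-CX.

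The next question was whether the levels moved between the stages of castrated growth. No gene at all was called in CRPC minus POST-CX (0 of 17131 in limma, 0%), where 1154 genes had an unadjusted p under 0.05 and the alternative settings called between 0 and 27 genes. DDC was 0.76 lower in CRPC on the log2 scale (95% interval -1.87 to 0.34, limma adjusted p = 0.718), with 8 of 10 CRPC tumours below the POST-CX median. OPRK1 was 1.09 higher (interval 0.07 to 2.11, limma adjusted p = 0.709), with 9 of 10 CRPC tumours above the POST-CX median. BCHE differed by 0.39 (interval -0.84 to 1.62, limma adjusted p = 0.846).

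DDC was higher at the low point of the antigen on enzalutamide (ENZS) than in tumours relapsed after castration alone (CRPC). In ENZS minus CRPC its log2 difference was 1.69 ± 0.50 (SE, limma adjusted p = 0.0227), in a comparison that called 2.42% of genes, and 11 of 12 ENZS tumours exceeded the CRPC median. The groups overlapped, since 8 of 12 ENZS tumours lay above all CRPC tumours. Without the expression filter, which raises the genes tested to 39909, the adjusted p was 0.0546 and the call was lost, and over the 6 alternatives it ran from 0.0028 to 0.0546. OPRK1 differed by 1.01 ± 0.46 in the same direction and was not called (limma adjusted p = 0.167, alternatives from 0.0419 to 0.267). BCHE differed by 0.43 ± 0.56 (limma adjusted p = 0.694), with 6 of 12 ENZS tumours above the CRPC median.

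OPRK1 was higher in ENZS than in POST-CX. Its log2 difference was 2.10 ± 0.49 (SE, limma adjusted p = 0.00171), where 4.82% of genes were called, and 11 of 12 ENZS tumours lay above all POST-CX tumours. The call held under all 6 alternatives. DDC differed by 0.92 ± 0.53 in this comparison (limma adjusted p = 0.208) and BCHE by 0.82 ± 0.59 (limma adjusted p = 0.317), and neither was called.

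Relapse on enzalutamide brought no called change of the 3 genes. In ENZR minus ENZS, which called 0.00584% of genes, a single one, DDC differed by -0.63 (95% interval -1.53 to 0.27, limma adjusted p = 0.519) and OPRK1 by -0.78 (interval -1.62 to 0.05, limma adjusted p = 0.454). BCHE differed by -1.49 (interval -2.50 to -0.49, limma adjusted p = 0.286), with 13 of 15 ENZR tumours below the ENZS median and 5 of 15 below every ENZS tumour. Against CRPC, where 1.37% of genes were called, ENZR differed by 1.05 in DDC, 0.23 in OPRK1 and -1.06 in BCHE (limma adjusted p = 0.254, 0.867 and 0.318). Against POST-CX, where 1.51% were called, ENZR differed by 0.29 in DDC, 1.32 in OPRK1 and -0.67 in BCHE (limma adjusted p = 0.873, 0.108 and 0.657). The OPRK1 difference of ENZR from POST-CX was called after rescaling (1.29, adjusted p = 0.0403), after centring on the tumour median (1.22, 0.0459) and without the 2 low-total tumours (1.59, 0.0153), while its adjusted p reached 0.219 in another alternative. That of DDC from CRPC was called after rescaling only (1.34, adjusted p = 0.0345), within a range of 0.0345 to 0.417. The step at relapse on enzalutamide minus the step at relapse after castration, a test that called 0.187% of genes, was 0.13 for DDC, -1.87 for OPRK1 and -1.88 for BCHE (limma adjusted p = 0.911, 0.159 and 0.205).

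Ordered by mean TPM, the castrated groups ran from ENZS over ENZR and POST-CX to CRPC for DDC, from ENZS over ENZR and CRPC to POST-CX for OPRK1, and from ENZS over CRPC and POST-CX to ENZR for BCHE. No pair of neighbours in any of these orders passed the test.

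**Figure D2:**
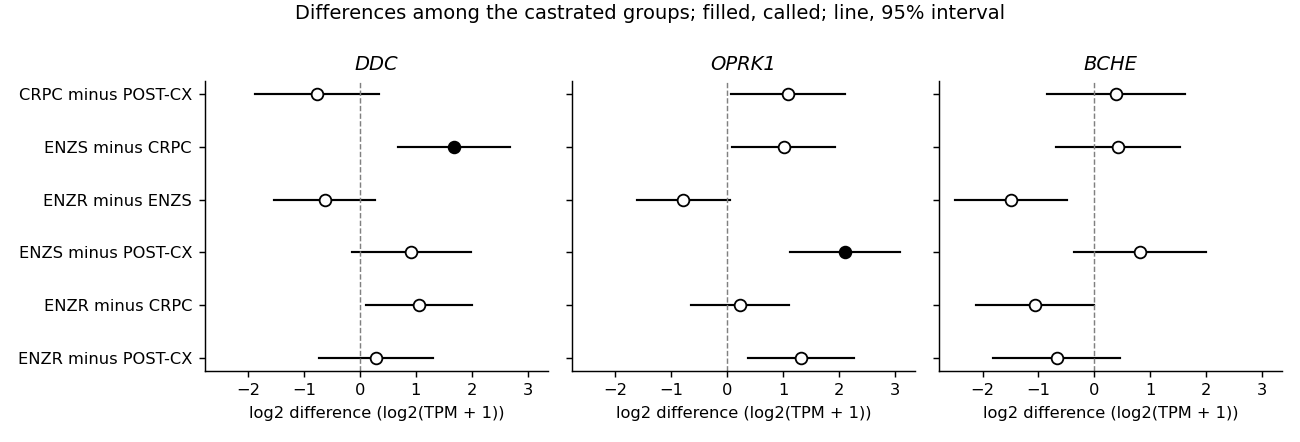
Differences between the castrated groups in DDC, OPRK1 and BCHE (horizontal axis, log2 difference of TPM + 1; points, fitted difference; lines, 95% interval; filled points, called). Only DDC in ENZS minus CRPC (1.69) and OPRK1 in ENZS minus POST-CX (2.10) are filled, and most other intervals include 0.

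Single tumours showed that the genes did not always move together. ENZR mouse 104, lowest of its group for DDC at 20.3 TPM, had 84.1 TPM of OPRK1, the group median. ENZR mouse 75, at 4.76 TPM of OPRK1, had 144 TPM of DDC. ENZS mouse 17, at 11.5 TPM of OPRK1, had 406 TPM of DDC and 24.6 TPM of BCHE. ENZR mouse 94, the highest of its group for BCHE at 61.2 TPM, had 37.5 TPM of OPRK1. ENZR mouse 87 had 16.95 TPM of BCHE as deposited and 139.6 after rescaling, the highest rescaled value of all 54 tumours. Within groups, taken as deviations from the group mean of log2(rescaled TPM + 1) over 54 tumours, DDC and OPRK1 correlated at r = 0.381 (adjusted permutation p = 0.0201 over 9 relations; Spearman's rho 0.422, adjusted 0.0163). This r was not particular to the pair. Among 11979 genes OPRK1 ranked only 1780th in r with DDC over these deviations, and DDC ranked 2237th in r with OPRK1. DDC and BCHE correlated at 0.214 (adjusted permutation p = 0.172) and OPRK1 and BCHE at -0.008 (0.959). Without the 2 tumours farthest from the median of DDC, r of DDC and OPRK1 was 0.441. In single groups it was 0.533 in PRE-CX, 0.907 in POST-CX, 0.472 in CRPC, 0.258 in ENZS and 0.321 in ENZR, and in none did its adjusted permutation p fall under 0.05 over 45 relations (lowest 0.0589, in POST-CX). After centring on the tumour median the POST-CX value passed (0.901, adjusted permutation p = 0.0439), and without POST-CX mouse 91 it was 0.705 (adjusted 0.321). Leaving out the 2 tumours of each group farthest from its median of DDC gave 0.637 in PRE-CX, 0.638 in POST-CX, -0.245 in CRPC, 0.231 in ENZS and 0.752 in ENZR. In CRPC rho was 0.067, so the positive r there rests on those tumours.

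Over the deviations from group means and in ENZS alone, DDC ran against the androgen-induced genes when measured by Pearson's r. Against the mean of 20 androgen-induced genes such as KLK3, TMPRSS2 and FKBP5, DDC correlated at r = -0.470 over the deviations of 54 tumours (adjusted permutation p = 0.00135; rho -0.305, adjusted 0.0885), OPRK1 at -0.268 (adjusted 0.113) and BCHE at -0.246 (adjusted 0.128). In ENZS alone r of DDC was -0.858 (n = 12, adjusted permutation p = 0.0198; rho -0.916), and -0.806 without the 2 tumours farthest from the median of DDC. The 4 ENZS tumours with over 1000 TPM of DDC had a mean log2 of the androgen-induced genes between 5.23 and 6.02, and the 2 lowest in DDC, ENZS mouse 45 and ENZS mouse 6, had 6.73 and 6.79. This was the only one of 45 relations within single groups to pass. In the other groups r was 0.012 in PRE-CX, -0.449 in POST-CX, -0.341 in CRPC and -0.581 in ENZR. Without the 2 tumours farthest from the median of DDC it was -0.183, 0.090, 0.067 and -0.272 in these groups, so the negative values there rest largely on those tumours. In ENZR rho was -0.107. Whether ENZS differs from the other groups was not tested. On TPM as deposited, r of DDC with the androgen-induced genes was -0.064 over all groups (adjusted 0.740) and -0.766 in ENZS (adjusted 0.128), so that both calls rest on a correction for the human total of each tumour.

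Over the deviations from group means, all 3 genes ran against the proliferation transcripts, though not in every single group. Against the mean of 20 proliferation genes such as MKI67, TOP2A and PCNA, r was -0.553 for DDC, -0.524 for OPRK1 and -0.407 for BCHE over the deviations (adjusted permutation p = 0.00027, 0.0012 and 0.0201). For DDC r was 0.308 in PRE-CX, -0.852 in POST-CX, -0.777 in CRPC, -0.669 in ENZS and -0.667 in ENZR, with adjusted permutation p from 0.0589 to 0.644. Without the low-total tumour POST-CX mouse 91 the POST-CX value was -0.382, and after centring that in ENZR passed (-0.697, adjusted permutation p = 0.0439). Without the 2 tumours farthest from the median of the member, r over the deviations was -0.565, -0.401 and -0.344. On TPM as deposited the 3 values were -0.228, -0.109 and -0.273 and none passed (adjusted 0.367, 0.677 and 0.340). Between groups, 16 of these 20 genes were called lower in ENZS minus CRPC, where 2.42% of all genes were called. This was the comparison in which DDC was called higher. Of the same genes 13 were also called lower in ENZS minus POST-CX, 14 in ENZR minus CRPC and 13 in ENZR minus POST-CX. Over all genes 4.82%, 1.37% and 1.51% were called there. DDC was called in none of these 3 comparisons (limma adjusted p = 0.208, 0.254 and 0.873). The part of the proliferation genes in the DDC difference was not tested.

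**Figure D3:**
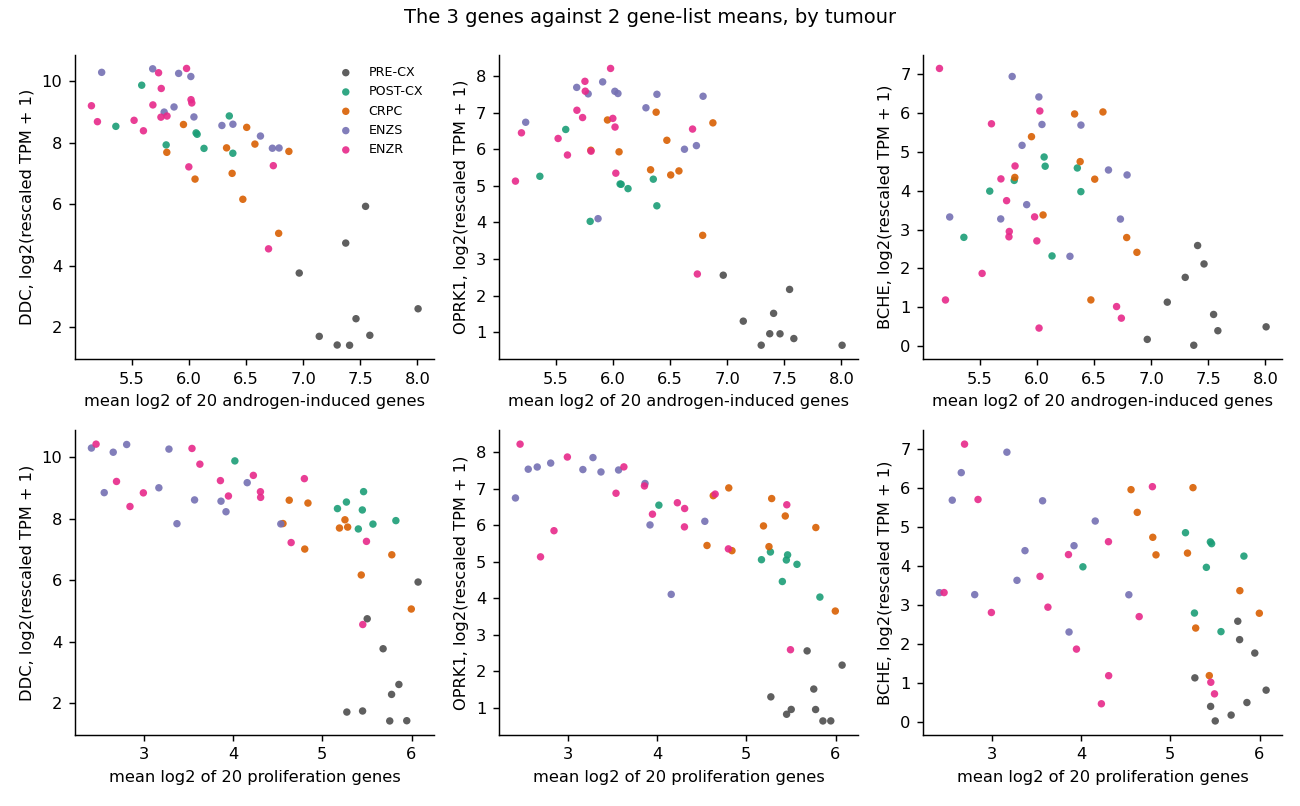
DDC, OPRK1 and BCHE (vertical axes, log2 of rescaled TPM + 1) in each of 54 tumours against the mean log2 of 20 androgen-induced genes (upper row) and of 20 proliferation genes (lower row), coloured by group. DDC falls along both axes within the ENZS tumours (r = -0.858 and -0.669), and BCHE is scattered within groups.

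The gene whose level was most like that of DDC was its neighbour on the chromosome. GRB10, an adaptor of insulin and growth factor receptors, lies at 50590068 to 50793453 on chromosome 7. The gap between the nearest ends of GRB10 and DDC is 24.7 kb, which is not a distance between their transcription starts. GRB10 ranked first of 11979 genes in Pearson's r with DDC, both over the 54 tumours (0.927) and over the deviations from group means (0.762). The first of these values includes the shift between groups that all androgen-dependent genes share, and both are descriptions. In single groups r of GRB10 and DDC was 0.543 in PRE-CX, 0.680 in POST-CX, 0.821 in CRPC, 0.815 in ENZS and 0.902 in ENZR. GRB10 ranged in TPM from 15.3 over 19.8 to 43.4 in PRE-CX and from 78.0 over 197 to 371 in POST-CX, with no overlap. It was called higher in each castrated group, by 3.0, 2.16, 3.29 and 2.96 on the log2 scale in POST-CX, CRPC, ENZS and ENZR (limma adjusted p = 9.62e-07, 0.000164, 1.28e-09 and 8.93e-09). Since DDC was chosen on its rise against PRE-CX, a gene this like it over the 54 tumours would also rise. These 4 calls therefore add nothing to the likeness, and the same holds for the other genes most like a member. Like DDC, GRB10 was also called higher in ENZS minus CRPC (1.13, limma adjusted p = 0.0451). COBL, an actin nucleator 451 kb from DDC on the same side, was called higher in all 4 comparisons, by 1.22, 1.2, 1.88 and 1.63, and had r of 0.839 and 0.593 with DDC, its POST-CX call being lost without the expression filter. FIGNL1, 8.09 kb away on the other side, had means of 23.4, 32.2, 24.9, 22.2 and 24.98 TPM over the 5 groups, was not called, and had r of 0.199 and 0.174.

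BCHE was also most like genes of its own region. SLITRK3, a neuronal membrane protein that organises synapses, lies 576 kb from BCHE on chromosome 3 and ranked first over the 54 tumours (r = 0.919) and over the deviations (0.903). SI, the sucrase-isomaltase of the gut brush border, lies 683 kb away and ranked second in both (0.832 and 0.755). Between them and BCHE lies LINC01322, a weakly expressed long non-coding RNA, whose r with BCHE was 0.753 and 0.743. In single groups r of SLITRK3 and BCHE lay between 0.848 and 0.938. SLITRK3 was called higher in CRPC and ENZS (2.56 and 2.62) and not in POST-CX or ENZR (2.00 and 1.18, limma adjusted p = 0.0999 and 0.144), and its median was 0.52, 7.42, 9.80, 6.46 and 1.40 TPM over the 5 groups. The ENZR mean of SLITRK3 was 9.07 TPM with and 2.92 TPM without ENZR mouse 94, at 95.1 TPM, which was also the highest ENZR tumour for BCHE as deposited. SI was called higher in CRPC, ENZS and ENZR by 2.08, 2.65 and 1.79. Next after these in likeness to BCHE over the 54 tumours came RCN2, RIMS1 and RBPMS (r = 0.739, 0.725 and 0.721).

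The transcript most like OPRK1 was AC022034.3, first over the 54 tumours (r = 0.966) and over the deviations (0.895), with means of 20.6, 104, 134, 187 and 170.1 TPM over the 5 groups, higher than those of OPRK1 in each. It has no position in the annotation used here. NRG3, SUSD4, LRRN1 and MFSD4A followed over the 54 tumours (r from 0.925 to 0.941). NRG3 encodes a neuregulin ligand of ERBB4, and its mean rose from 0.479 TPM in PRE-CX to 10.99 in ENZS. As NRG3 was picked by its likeness to OPRK1, this rise is a description. Of the annotated neighbours of OPRK1, ATP6V1H, a subunit of the vacuolar proton pump 464 kb away, had r of 0.845 and 0.726 and was called higher in ENZS only (1.21, and 0.96 after centring). SNAI2, a repressor of epithelial genes 4304 kb away, moved the other way and was called lower in all 4 groups, by 1.62 to 1.89 on the log2 scale. Over the 18 neighbours of the 3 genes, up to 3 on each side, 2 were called higher and 1 lower in POST-CX minus PRE-CX, 4 and 1 in CRPC, 6 and 1 in ENZS, and 4 and 1 in ENZR, where 2.62%, 3.17%, 12.7% and 8.55% of all genes were called.

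**Figure D4:**
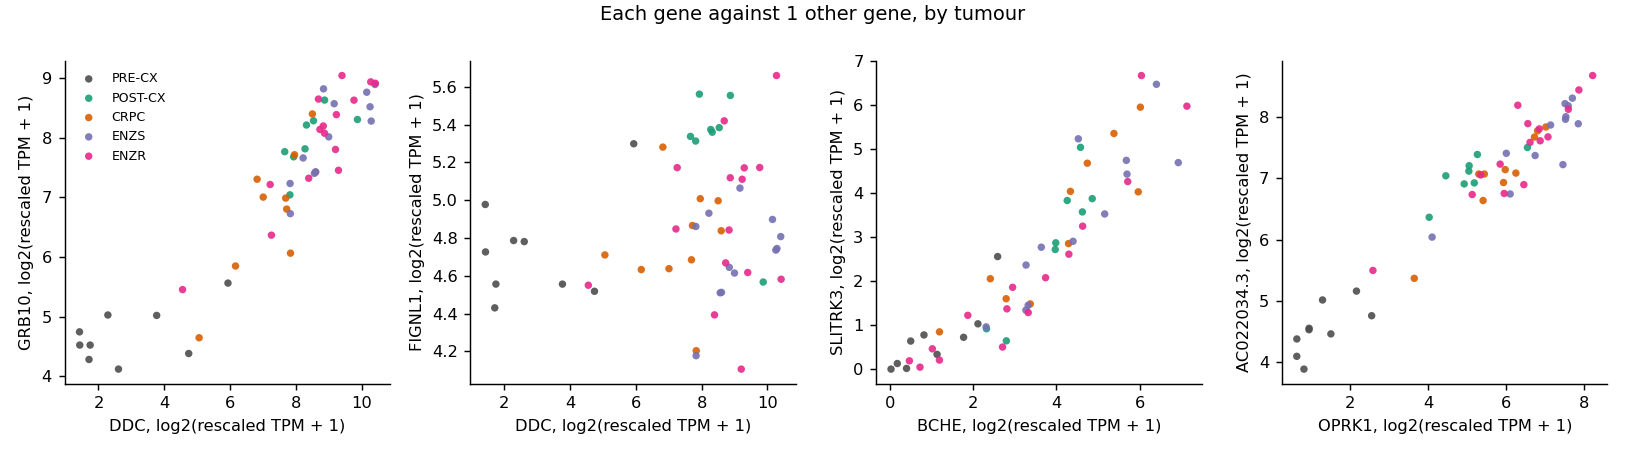
DDC against GRB10 and FIGNL1, BCHE against SLITRK3, and OPRK1 against AC022034.3, each as log2 of rescaled TPM + 1 in 54 tumours coloured by group. GRB10, SLITRK3 and AC022034.3 rise along their partner within groups (r over deviations 0.762, 0.903 and 0.895), and FIGNL1 does not follow DDC (0.174).

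The enzymes that feed DDC were listed at or near 0 in every group. Of 17 genes of aromatic amine synthesis 8 passed the expression filter, DDC among them. TH and TPH2, which make L-DOPA and 5-hydroxytryptophan, had means of at most 0.024 TPM in any group, and TPH1, the peripheral tryptophan hydroxylase, had means from 0.11 in PRE-CX to 0.657 in ENZS. DBH, which turns dopamine into noradrenaline, and HDC, the histidine decarboxylase, had means of at most 0.0025 and 0.0744 TPM. The genes that make and recycle the hydroxylase cofactor tetrahydrobiopterin were present, with PCBD1 at 158 and PTS at 78.3 TPM over all tumours. DNAJC12, a co-chaperone of the aromatic amino acid hydroxylases, was called higher in CRPC, ENZS and ENZR (1.33, 1.89 and 1.5, limma adjusted p = 0.0178, 2.8e-05 and 0.000588) and was the fifth gene in likeness to BCHE over the deviations (r = 0.665). PCBD2 was called in ENZS only (1.01), and its difference fell below 1 after centring on the tumour median. Of the 7 tested genes other than DDC, 0, 1, 2 and 1 were called higher in POST-CX, CRPC, ENZS and ENZR minus PRE-CX and none lower, and none of the 4 genes that supply vitamin B6 was called. Over all genes tested, 2.62%, 3.17%, 12.7% and 8.55% were called in these comparisons. The same shares stand beside the calls against PRE-CX in the paragraphs that follow.

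Of the genes that store, take up and break down amines, a breakdown enzyme was abundant and the vesicle transporters were near 0. MAOA, which degrades dopamine and serotonin, had a mean of 348 TPM over all tumours and was not called in any group (-0.26 in ENZS). The vesicular transporters SLC18A1 and SLC18A2 had means of at most 0.085 TPM in any group. SLC6A4, the serotonin transporter, had a mean of 0.0711 TPM in PRE-CX, 1.10 in POST-CX, 1.69 in CRPC, 5.25 in ENZS and 4.96 in ENZR, and was called higher in the last 3 (1.23, 2.27 and 1.97, limma adjusted p = 0.0271, 6.48e-07 and 8.0e-06), the CRPC call being lost without the filter. Without PRE-CX mouse 4 its PRE-CX mean was 0.035. SLC22A3, a low-affinity amine transporter, was called lower in ENZS and ENZR, by -1.68 and -2.35, with a PRE-CX mean of 24.5 ± 38.8 TPM (14.004 without PRE-CX mouse 67), and the ENZS call was lost under 3 alternatives. ALDH2, which oxidises the aldehydes made by MAOA, was called higher in ENZS (1.84). Among 17 amine receptors 2 passed the filter, and HTR2C was called higher in CRPC, ENZS and ENZR (1.01, 1.59 and 1.18, the first below 1 after centring) while HTR5A was called lower in POST-CX (-1.22). Of 7 aromatic amino acid transporters, SLC43A1 was called lower in all 4 groups, from 40.0 TPM in PRE-CX to 1.91 in ENZR.

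OPRK1 was the only one of the related opioid receptor genes to reach a high level, and the ligand genes stayed below the expression filter. The mu and delta receptor genes OPRM1 and OPRD1 had means of at most 0.0189 TPM in any group. OPRL1, the nociceptin receptor, had a mean of 0.350 TPM in PRE-CX and higher means after castration. These were 0.99 in POST-CX, 0.75 in CRPC, 1.47 in ENZS and 1.11 in ENZR. OGFR, an unrelated opioid growth factor receptor, had means from 14.1 to 15.9 TPM. Neither OPRL1 nor OGFR was called, on a log2(TPM + 1) scale that understates changes at the low level of OPRL1. None of the 4 opioid precursor genes passed the filter: PDYN, the source of dynorphin, had means of at most 0.0475 TPM, POMC of at most 0.194 and PNOC of at most 0.0247, and PENK was listed at 0 in every tumour. Ligand from the mouse host was not measured in the human values. Of 13 genes that process or degrade peptides, CPE rose from 82.8 TPM in PRE-CX to 436 in ENZS and was called in CRPC, ENZS and ENZR (1.32, 2.38 and 1.69). PAM and PCSK1N were called in ENZS and ENZR, and MME, the neprilysin that degrades enkephalins, in ENZS (1.62), where its mean was 1516 TPM. The convertases PCSK1 and PCSK2 had means of at most 0.0093 TPM. Of 12 tested signalling genes downstream of opioid receptors, GNAI1, an inhibitory G protein subunit, was called higher in CRPC only (2.85), and KCNJ3, a subunit of the potassium channel that such receptors open, in ENZS and ENZR (1.38 and 1.73), the ENZS call being lost after centring and without the filter. GNAZ, a further inhibitory subunit, and GRK3, a receptor kinase, were called higher in ENZS (1.16 and 1.05), and both fell below 1 after centring.

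The sister enzyme of BCHE was called higher in the enzalutamide groups than in PRE-CX, and its relation to BCHE across tumours was not tested. ACHE, acetylcholinesterase, had means of 0.507, 0.438, 1.29, 6.05 and 5.24 TPM over the 5 groups and was called higher in ENZS and ENZR minus PRE-CX (1.53 and 1.46, limma adjusted p = 0.0032 and 0.00463). Without ENZS mouse 49, at 36.1 TPM, the ENZS mean of ACHE was 3.32, and without CRPC mouse 81, at 7.73 TPM, the CRPC mean was 0.576. It was not called in POST-CX or CRPC, where BCHE was 2.58 and 2.97 higher. CHAT and SLC18A3, which make and store acetylcholine, had means of at most 0.0056 TPM. Of 10 tested genes of acetylcholine synthesis and reception, the choline transporter SLC44A1 was called higher in POST-CX, ENZS and ENZR (1.21, 1.54 and 1.47), the nicotinic receptor gene CHRNA2 lower in all 4 groups (-2.75, -2.01, -2.63 and -3.04) and the muscarinic receptor gene CHRM3 lower in CRPC and ENZR (-1.37 and -1.27), the CRPC call being lost without the filter.

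**Figure D5:**
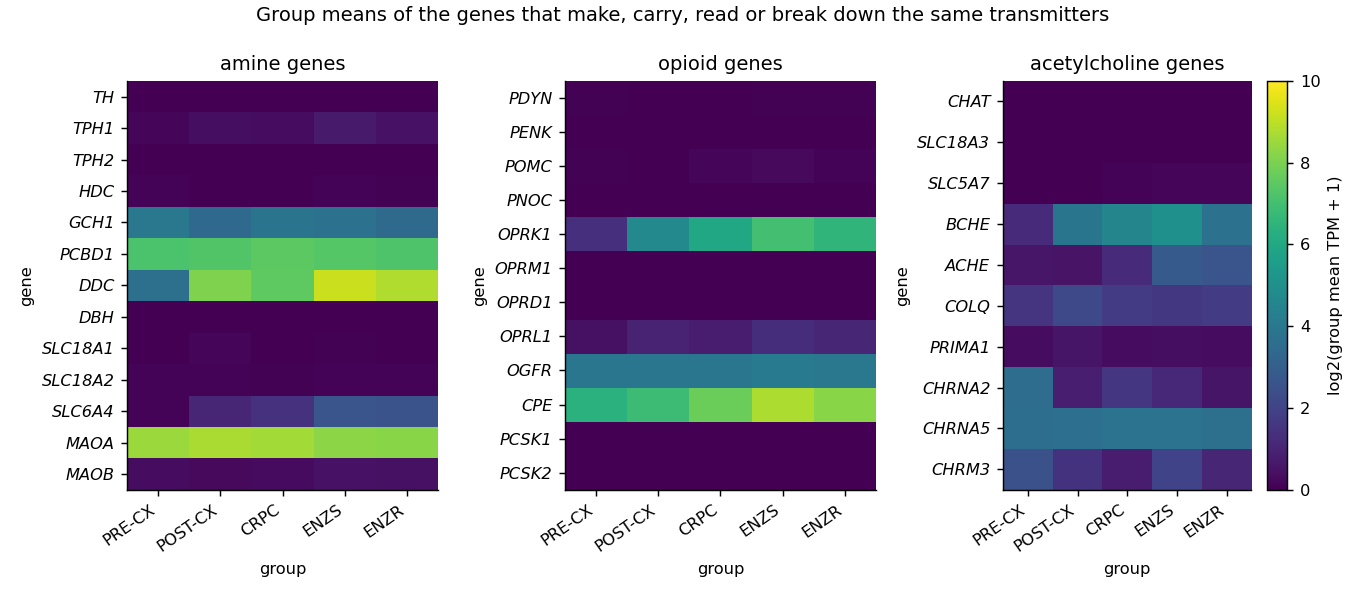
Group means (colour, log2 of mean TPM + 1; rows, genes; columns, the 5 groups) of genes around DDC, OPRK1 and BCHE. The 3 genes brighten from PRE-CX to the castrated groups, while TH, TPH2, the opioid precursors and CHAT stay at or near 0 in every group.

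Of 25 markers of neuroendocrine prostate cancer 5 passed the filter, and CHGA, NEUROD1 and INSM1 had means of at most 0.315 TPM in any group. The summed level of the list was not near 0, although 13 of the 25 markers stayed under 1 TPM in every tumour. This sum had a median of 808 TPM in PRE-CX, 697 in POST-CX, 1534 in CRPC, 1442 in ENZS and 1806 in ENZR. It can rest on few abundant genes and does not show that the markers rose together. SYT1 and SYT4, synaptotagmins of secretory vesicles, were called higher in CRPC, ENZS and ENZR (SYT1 by 1.67, 1.93 and 1.10, SYT4 by 1.67, 1.41 and 1.45), the SYT4 call in CRPC being lost without the expression filter. ENO2, a neuronal enolase, was called higher in ENZS minus POST-CX (1.51). NTS, the neurotensin precursor and a further gene known to be held down by androgens, was called higher in CRPC, ENZS and ENZR (2.79, 2.67 and 2.88). Of the 20 androgen-induced genes 15, 7, 12 and 17 were called lower in POST-CX, CRPC, ENZS and ENZR minus PRE-CX, and STEAP2 was called higher in ENZS. The shares called over all genes in these comparisons were 2.62%, 3.17%, 12.7% and 8.55%.

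Human transcripts that mark other cell types moved in part with the same groups. The injected cells were LNCaP, the hosts were mice and the values are of human symbols. Host cells were therefore not measured directly by these markers. Whether mouse reads were placed on these human genes was not tested. Of 18 stroma, vessel and blood markers 8 passed the filter, LUM, DCN and COL3A1 were called higher in CRPC, ENZS and ENZR (DCN in ENZR not without the filter) and CD68 in ENZS, while VWF was called lower in CRPC and ENZR. Their summed level was 17.5 to 31.0 TPM in PRE-CX, 12.4 to 38.8 in POST-CX, 24.6 to 99.0 in CRPC, 32.5 to 260.1 in ENZS and 13.3 to 88.4 in ENZR, and the leukocyte, endothelial and red cell markers PTPRC, PECAM1, CDH5 and HBB had means of at most 0.045 TPM. Of 12 nerve and Schwann cell markers 4 passed and NEFL was called higher in CRPC, ENZS and ENZR (1.04, 1.95 and 1.01; below 1 in CRPC and ENZR after centring), with summed levels of 31.0 to 61.6 TPM in PRE-CX and 35.6 to 86.0 in ENZS. SOX10 was listed at 0 in every tumour, and S100B and RBFOX3 had means of at most 0.0267 TPM. The part of these markers in the levels of the 3 genes was not tested.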

How the data were processed

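RNA-seq of 54 tumours was grouped by the labels, with 1 mouse per tumour. Per the labels, libraries were strand-specific and polyA-enriched. The deposited values are TPM per human gene symbol, made by the authors with RSEM after alignment to a combined human GRCh38 and mouse GRCm38 reference. The submitters' processing notes name FastQC 0.11.9, Trim Galore 0.6.5, STAR 2.7.2b and RSEM 1.3.3. TPM hold no read depth, so precision rests on the spread between tumours. RSEM divides reads between near-identical copies such as UGT2B15 and UGT2B17, whose values are uncertain.

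The 17131 genes with at least 8 tumours at 1 TPM or above were fitted with limma 3.58.1 (R 4.3.3, trend) on log2(TPM + 1), with 5 group means, two-sided, and Benjamini-Hochberg adjustment over all genes in a comparison. Called genes had both an adjusted p below 0.05 and a log2 difference of 1 or more in size. The fit was tested on simulated data. Relations used log2(rescaled TPM + 1) and two-sided permutation tests in numpy 2.4.6 (exact below 10 tumours, otherwise 100000 resamples), with ranks from scipy 1.17.1. Their p-values were adjusted over 9 pooled relations and over 45 in single groups.

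The 3 genes, the 18 lists (240 genes) and the tests were chosen with earlier results of these data known. Named genes were the members, abundant partners and called genes with large differences in each list, up to 3 expressed neighbours on each side, and the 5 genes most like each member among 11979 with a group mean of at least 5 TPM. Partners at or near 0 were named for their role after their values were seen. Alternatives were rescaled or median-centred values, a pseudocount of 0.1, no expression filter, leaving out the 2 tumours with a total under 50%, and fitting only the 2 groups compared. Some genes of the lists are not reported here.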

Additional observations from a re-analysis of the deposited data

Results flagged for a closer look

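DDC in PRE-CX mouse 53, at 56.65 TPM, stood apart from the other 8 tumours of intact mice, the next highest being 24.5 TPM in PRE-CX mouse 58. The gap took up 0.581 of the whole range of the group. The same tumour had 3.28 TPM of OPRK1, the second highest of PRE-CX, and 0.72 TPM of BCHE, the group median. The gap was measured on TPM. On the log2(TPM + 1) scale PRE-CX mouse 53 lay at 5.85, PRE-CX mouse 58 at 4.67 and the lowest, PRE-CX mouse 67, at 1.26. The gap was a smaller part of the range on that scale. The 3 genes were examined in the 3 groups of 10 or fewer tumours, 9 sets of values in all. Chance alone sets apart about 1 in 20 such sets only where values are normally distributed. DDC in PRE-CX was skewed, with a mean of 12.0 and a median of 3.24 TPM, and its own chance rate was not tested.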

How the results depend on the processing

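The calls of the members rest on 8 to 15 tumours a group and on values without read depth, so small differences were not detectable. No paired analysis was possible because no mouse number is shared between groups. Of 123 repeated tests of the members, 117 kept their direction and call. Without the expression filter DDC in ENZS minus CRPC kept its 1.69 with an adjusted p of 0.0546, with more genes tested. Rescaling brought calls for OPRK1 in ENZS minus CRPC (1.09), DDC in ENZR minus CRPC (1.34) and OPRK1 in ENZR minus POST-CX (1.29), the last also called after centring (1.22) and without the low-total tumours (1.59). OPRK1 in ENZS minus POST-CX stayed called in all 6 alternatives (1.80 to 2.14, adjusted p 0.000203 to 0.00659). A pseudocount of 0.1 moved the POST-CX minus PRE-CX differences of OPRK1 to 4.24 and of BCHE to 3.72. For relations, TPM as deposited gave r of -0.064 for DDC and 0.189 for OPRK1 with the androgen-induced genes, and -0.228, -0.109 and -0.273 for DDC, OPRK1 and BCHE with the proliferation genes, and 0.043 for DDC with the latter in POST-CX alone. Centring on the tumour median, chosen after seeing the data, gave 0.329 for DDC and OPRK1 and -0.335 for BCHE and proliferation (adjusted p 0.0557 for both). Without the low-total tumours BCHE and proliferation gave -0.355 (adjusted p 0.0542), and OPRK1 and BCHE gave 0.061, and 0.013 with a pseudocount of 0.1. The cause was not tested in these cases. Rescaling moved the median log2 difference of all genes by 0.21 in POST-CX minus PRE-CX, 0.18 in ENZR minus PRE-CX, -0.24 in CRPC minus POST-CX and 0.40 in the difference of relapse steps, and centring moved it by -0.25 in ENZS minus PRE-CX. The share of called genes that were higher went from 35.0% to 65.5% in POST-CX minus PRE-CX and from 54.4% to 72.5% in ENZR minus PRE-CX after rescaling, and from 74.3% to 48.3% in ENZS minus PRE-CX after centring. Counts of called genes moved most with a pseudocount of 0.1, from 543 to 1093 in CRPC minus PRE-CX, 2180 to 3647 in ENZS minus PRE-CX, 1464 to 2620 in ENZR minus PRE-CX, 448 to 742 in POST-CX minus PRE-CX, 414 to 761 in ENZS minus CRPC and 826 to 1569 in ENZS minus POST-CX. They fell from 258 to 108 in ENZR minus POST-CX when only the 2 groups were fitted, and from 32 to 3 in the difference of relapse steps without the filter. No called gene of the lists, neighbours or most alike genes changed direction, and 0 to 6 of the 35, 45, 86 and 83 called in POST-CX, CRPC, ENZS and ENZR minus PRE-CX lost their call in any 1 alternative.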
